A study of Mus musculus with 6 samples.

Results

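Heat shock proteins and their partner chaperones were examined in quadriceps muscle 7 days after volumetric muscle loss, a surgical injury in which part of the muscle is cut out. The genes were taken by symbol, as the Hspa, Hspb, Hspd, Hspe and Hsph, Hsp90, Dnaja, Dnajb, Dnajc, Bag, Cct and Pfdn genes together with Hsf1, Hsf2, Cryab, Tcp1, Unc45a, Unc45b, Stip1, Ptges3 and Ahsa1, with Hspa5 left out. This gave 89 of the 14015 genes with a symbol in the deposited table. The GENCODE M21 annotation holds 99 protein-coding genes that the same symbols match, and the other 10 were not analysed here. The samples were 3 WT mice and 3 mice labelled GATA-1 mutant, which are the ΔdblGATA mice that lack eosinophils because a GATA site was deleted from the Gata1 promoter. All 6 had the injury and none received an implant. The WT mice were female C57BL/6 adults, and the age and sex of the ΔdblGATA mice are not given in the sources used here. The deletion is carried in the germline, so every tissue of these mice bears it.

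The table gives no value per mouse. The only measurement in it that is not a comparison made by the authors is the mean log2 CPM of each gene over the samples of their fit, where CPM is the count of a gene scaled to the size of the library. A value of 0 on this scale is 1 CPM and each added unit doubles the level. These means carry no standard deviation, the depth per sample is unknown, and which samples entered the fit is not stated. The table also holds a comparison of the genotypes made by the authors, which was not used here. Without values per mouse no comparison of WT and ΔdblGATA mice was computed anew, and no difference in level between genes was tested. To compare genes, each mean was divided by transcript length and is given as log2 CPM per kilobase. In whole muscle, fewer cells of a type and less RNA per cell cannot be told apart.

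The tissue label was checked against marker genes. All 6 skeletal muscle markers were listed, at means from 10.70 log2 CPM for Mb to 14.65 log2 CPM for Myh4. Of 4 macrophage markers 3 were listed, from 5.05 log2 CPM for Cd68 to 9.12 log2 CPM for Lyz2. Of 5 eosinophil markers (Siglecf, Ccr3, Epx, Prg2 and Il5ra) 0 were listed. The study kept only genes above 1 CPM in at least 3 samples, so a gene that is not listed may still be expressed. By flow cytometry, the paper found eosinophils in control injuries of WT mice.

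Chaperones bind unfolded or newly made proteins and keep them from aggregating. Hsp70 and Hsp90 work through cycles of ATP hydrolysis that are steered by co-chaperones: J-domain proteins bring clients to Hsp70 and start its ATPase, BAG proteins release its nucleotide, and Stip1, Ptges3 and Ahsa1 act at successive stages of the Hsp90 cycle. Small heat shock proteins hold unfolding clients without ATP, and the ring-shaped CCT and Hsp60 chaperonins enclose them. In muscle these proteins guard sarcomere proteins such as myosin and desmin against mechanical strain, and heat shock factors switch on the inducible members by binding repeated GAA units in their promoters.

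Promoter sequence was read for the 72 listed genes that have an entry in the RefSeq promoter table (GRCm38.p6). Each entry runs from 250 bases before to 50 after a start of the gene. Where a gene has more than 1 entry, a match in any of them was counted. The other 17 genes have no entry and were not searched, among them Hspa8, Hspa9, Hsp90ab1, Hsp90aa1 and Cryab. The full heat shock element of 3 units, which is GAANNTTC continued by NNGAA or TTCNNGAA continued by NNTTC, searched on both strands, was present for 4 of the 72 (5.56%), beside 0.569% of the 10365 listed genes with an entry and 0.662% of all 27025 genes with an entry. These 4 genes were Hspd1, Hspe1, Dnajb6 and Hsph1. They hold 3 distinct elements, because Hspd1 and Hspe1 lie head to head and share a single stretch between them. The stretches are shown to let the letters of each element be compared, in the direction of the named gene and with the matching units in capitals.
Hspe1, shared with Hspd1 (GRCm38.p6, chr1:55088053-55088082, plus strand): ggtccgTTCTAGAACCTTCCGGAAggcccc
Dnajb6 (GRCm38.p6, chr5:29735844-29735873, plus strand): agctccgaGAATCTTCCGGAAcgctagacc
Hsph1 (GRCm38.p6, chr5:149636279-149636308, minus strand): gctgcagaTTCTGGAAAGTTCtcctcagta
The element between Hspd1 and Hspe1 was the longest of the 3, since it matched at 2 overlapping positions, and its first base lies 89 bases before the Hspe1 start. Dnajb6 and Hsph1 each matched in entries with different starts. The Dnajb6 element begins 46 or 127 bases before the start, and the Hsph1 element 15 or 36 bases after it. The shorter word GAANNTTC, which is part of the full element, was found for 15 of the 72 (20.8%), beside 6.98% of the listed genes, while TTCNNGAA was found for 7 (9.72%), beside 8.25%. CCAAT was found for 26 members (36.1%), beside 42.4% of the listed genes, and TATAAA for 5 (6.94%), beside 9.21%. By class, GAANNTTC was present for 2 of 2 Hsp60 and Hsp10 genes with an entry and 4 of 6 small heat shock protein genes. It was present for 2 of 4 type A J-domain genes, 2 of 7 Hsp70 genes and 1 of 3 Hsp110 genes. Lower shares were 1 of 5 BAG, 1 of 6 CCT, 1 of 10 type B and 1 of 18 type C J-domain genes. It was found for 0 of 5 Hsp90 co-chaperone, 0 of 4 prefoldin, 0 of 1 Hsp90 and 0 of 1 heat shock factor genes. These matches describe letters in a window and not binding. Only units without a changed letter were counted, so a promoter without a match may still hold an altered element.

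Hspb1 and the Hspa1a and Hspa1b pair, inducible genes in mammalian cells, held the shorter word, and the 150 bases before the start are shown for each with GAANNTTC in capitals.
Hspb1 (GRCm38.p6, chr5:135887769-135887918, plus strand): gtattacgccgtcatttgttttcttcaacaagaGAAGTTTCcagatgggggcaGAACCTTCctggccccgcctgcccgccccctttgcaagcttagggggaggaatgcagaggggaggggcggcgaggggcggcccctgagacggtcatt
Hspa1a (GRCm38.p6, chr17:34972157-34972306, minus strand): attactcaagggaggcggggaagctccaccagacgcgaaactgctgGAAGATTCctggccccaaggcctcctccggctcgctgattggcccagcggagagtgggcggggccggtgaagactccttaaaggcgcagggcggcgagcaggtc
Hspa1b (GRCm38.p6, chr17:34959239-34959388, minus strand): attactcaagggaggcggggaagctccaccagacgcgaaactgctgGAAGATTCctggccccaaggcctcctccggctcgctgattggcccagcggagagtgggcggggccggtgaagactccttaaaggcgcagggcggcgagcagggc
The matches of Hspb1 begin 117 and 97 bases before its start, and that of Hspa1a and Hspa1b begins 104 bases before. The printed stretches of Hspa1a and Hspa1b differ at 1 of 150 positions, and the whole 300-base windows at 4.

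As a group, the chaperone genes stood high in the table. Their median was 4.18 log2 CPM per kilobase, beside 2.27 over all listed genes with a transcript length, and 73 of 89 lay above that all-gene median. Without division by length the medians were 5.51 and 4.03 log2 CPM, and again 73 of 89 were above. Of the members 28 (31.5%) were in the upper 10% of listed genes by log2 CPM. With each mean converted back from log2 to CPM, the 89 genes made up 1.14% of the sum over all listed genes. Such values are geometric means over samples, so this is not a share of reads. Levels spread widely within the group, from -3.74 log2 CPM per kilobase for Hspa2 to 9.18 for Hspa8. By class, the medians per kilobase were 6.84 for Hsp90, 6.53 for Hsp60 and Hsp10, 6.36 for small heat shock proteins, 6.08 for CCT, 5.90 for Hsp90 co-chaperones and 5.73 for prefoldin. Lower medians were found for type A J-domain proteins at 4.98, BAG proteins at 4.64, type B J-domain proteins at 4.27, type C J-domain proteins at 3.35, Hsp70 at 2.47, heat shock factors at 1.68 and Hsp110 at 1.57. This order depends on the length used. Without division by length, CCT was second at 7.05 log2 CPM and small heat shock proteins were sixth at 6.68. Per kilobase of coding sequence, small heat shock proteins were first at 7.48, above Hsp90 at 7.07, and prefoldin was above CCT, which was at 6.35. Some classes hold only 2 or 3 genes, so their medians are single values or midpoints.

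**Figure D1:**
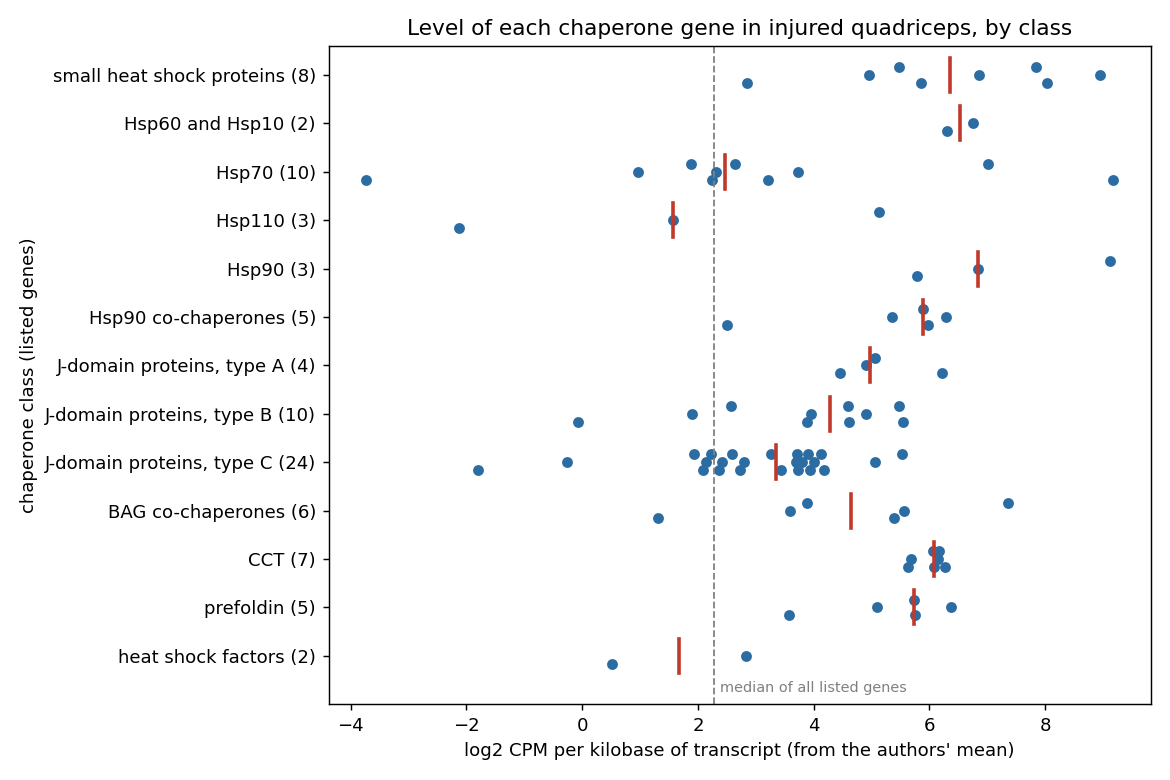
Level of each of the 89 genes as log2 CPM per kilobase of transcript (horizontal axis, from the authors' mean) by chaperone class (vertical axis, number of listed genes in brackets). Points are genes, red bars class medians and the dashed line the all-gene median of 2.27. CCT genes cluster tightly, between 5.63 and 6.27, while Hsp70 genes run from -3.74 to 9.18.

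Small heat shock protein genes ran from 8.95 down to 2.84 log2 CPM per kilobase. Hspb6 (chromosome 7 of GRCm38, 30552178 to 30555443), whose product is abundant in skeletal and cardiac muscle, had the highest level at 8.95 log2 CPM per kilobase. Its span overlaps the genes Lin37 and Proser3 in the annotation, although it shares no 31-base word with another gene. It was followed by Hspb8, the partner of Bag3, at 8.03, by Hspb1 (Hsp25 in the mouse) at 7.84 and by Hspb7, a filamin-binding muscle protein, at 6.86. Hspb6 ranked 113th of all listed genes by log2 CPM. Cryab, which encodes αB-crystallin, the chaperone of desmin, was at 5.48 log2 CPM per kilobase, and its neighbour Hspb2, the binding partner of myotonic dystrophy kinase, at 5.86, whereas as log2 CPM Cryab was at 5.64 and Hspb2 at 5.49. The level of Hspb6 was thus 11.1-fold that of Cryab per kilobase. Cryab and Hspb2 overlap in the annotation and 20.4% of the 31-base words of Cryab also occur in Hspb2, so reads could be divided between them. Hspb3, a muscle small heat shock protein, was at 4.95. Hspb11 was lowest at 2.84 and, although named as a small heat shock protein, its product is a subunit of the intraflagellar transport complex of cilia.

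The Hsp70 class was led by the constitutive cytosolic member. Hspa8 (chromosome 9 of GRCm38, 40800984 to 40810087), which encodes Hsc70, reached 10.44 log2 CPM and 9.18 per kilobase, and ranked 58th of all listed genes by log2 CPM. Hspa9, the mitochondrial Hsp70 that pulls proteins through the import channel, was at 7.02 per kilobase. All 8 remaining Hsp70 genes were at or under 3.73 per kilobase, the value of Hspa14, a ribosome-associated member. The stress-inducible genes Hspa1a and Hspa1b were at 2.31 and 1.87, near the all-gene median of 2.27, and the level of Hspa8 was 117-fold that of Hspa1a per kilobase. Hspa1l, known from testis, was at 3.21, the distant members Hspa12b and Hspa12a at 2.63 and 0.97, and the microsomal Hspa13 at 2.25. Hspa2, a germ cell Hsp70, was at -2.40 log2 CPM and -3.74 per kilobase. The filter of the study kept a gene that passed 1 CPM in 3 or more samples. A mean under 0 log2 CPM was found for Hspa2 and for the J-domain gene Dnajb3. Which samples were above or under 1 CPM for these genes cannot be read from a mean.
Hspa1a shares 63.8% of its 31-base words with Hspa1b, and Hspa1b 67.5% with Hspa1a, so the division of reads between them is uncertain and their difference of 0.43 log2 per kilobase was not interpreted. For Hspa8, 74.3% of the words also occur in Gm15459, which is listed at 1.68 log2 CPM. For Hspa1l, 71.7% occur in Gm10501.

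**Figure D2:**
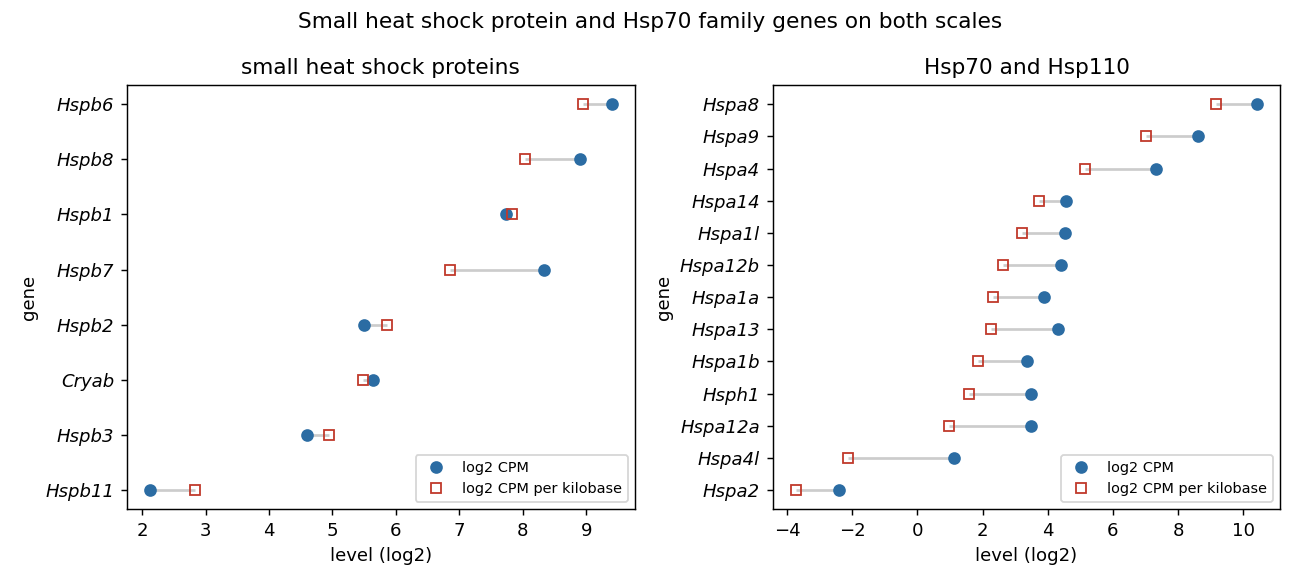
Level of each small heat shock protein gene (left) and each Hsp70 and Hsp110 gene (right), as log2 CPM (filled circles, the authors' mean) and as log2 CPM per kilobase of transcript (open squares), with genes on the vertical axis. Hspb6 at 8.95 and Hspa8 at 9.18 per kilobase head their panels, and Hspa1a at 2.31 and Hspa1b at 1.87 lie far under Hspa8.

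Hsp110 proteins are relatives of Hsp70 that exchange its nucleotide and help to dissolve aggregates. Hspa4 was at 5.13 log2 CPM per kilobase, 11.8-fold the level of Hsph1, the heat-inducible Hsp110, at 1.57. Hspa4l, known from testis, was at -2.12.

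All 3 Hsp90 genes were in the upper 10% of listed genes by log2 CPM. Hsp90ab1 (chromosome 17 of GRCm38, 45567775 to 45573271), the constitutive cytosolic form, was at 10.46 log2 CPM, the highest mean among the 89 genes on that scale, and at 9.13 per kilobase. The endoplasmic reticulum form Hsp90b1 (Grp94) was at 6.84 per kilobase and the inducible cytosolic form Hsp90aa1, which in muscle acts in the folding of myosin, at 5.79. Hsp90ab1 was thus 10.1-fold the level of Hsp90aa1. For Hsp90aa1 62.9% of the 31-base words occur in other genes, most of them in Gm12346, which is listed at -0.45 log2 CPM, so its value is less certain than that of Hsp90ab1, with 16.6%.
Per kilobase of transcript, the co-chaperones of Hsp90 were at similar levels apart from Unc45a. Without Unc45a, they ran as log2 CPM from 6.36 for Ptges3 to 7.95 for Unc45b. Per kilobase of coding sequence Ptges3 was instead the highest, at 7.41. Ahsa1, which activates the ATPase, was at 6.28 per kilobase, Stip1, which passes clients from Hsp70 to Hsp90, at 5.97, and Ptges3 (p23), which binds the closed form, at 5.36. Unc45b, the myosin chaperone of striated muscle, was at 5.90 and Unc45a, the form of other cells, at 2.50, a 10.5-fold difference in level per kilobase.

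Of the 9 annotated coding genes for the CCT ring (TRiC), which folds actin and tubulin, 7 were listed and lay close together. The other 2 were not analysed here, so the spread over the whole ring is not given. The 7 listed genes ran from 5.63 log2 CPM per kilobase for Cct7 to 6.27 for Tcp1, a range of 0.65, with Cct5 at 6.16, Cct8 at 6.14, Cct2 at 6.08, Cct3 at 6.07 and Cct4 at 5.68. Each of the 7 was in the upper 10% of listed genes by log2 CPM. Part of Tcp1 (24.8% of its words) is shared with other genes, chiefly Acat3, whose annotation overlaps it.
Prefoldin, the jellyfish-shaped complex that hands actin and tubulin to CCT, was less even. Pfdn5 was highest at 6.37, Pfdn6 was at 5.75, Pfdn1 at 5.73 and Pfdn2 at 5.10, whereas Pfdn4 was at 3.57, a range of 2.80. Vbp1, which encodes prefoldin subunit 3 under another name, was at 5.09. Pfdn5 and Pfdn2 share 35.2% and 30.3% of their words with other genes.
The mitochondrial chaperonin Hsp60, encoded by Hspd1, was at 6.30 per kilobase and its lid Hsp10, encoded by Hspe1, at 6.75. As log2 CPM the order was the opposite, at 7.58 for Hspd1 and 6.38 for Hspe1, since the Hspe1 transcript is shorter at 774 bases against 2423. For Hspd1 55.8% and for Hspe1 59.1% of the words occur in other genes. The gene with most of these words is Hspd1-ps3 for Hspd1, at 51.8%.

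**Figure D3:**
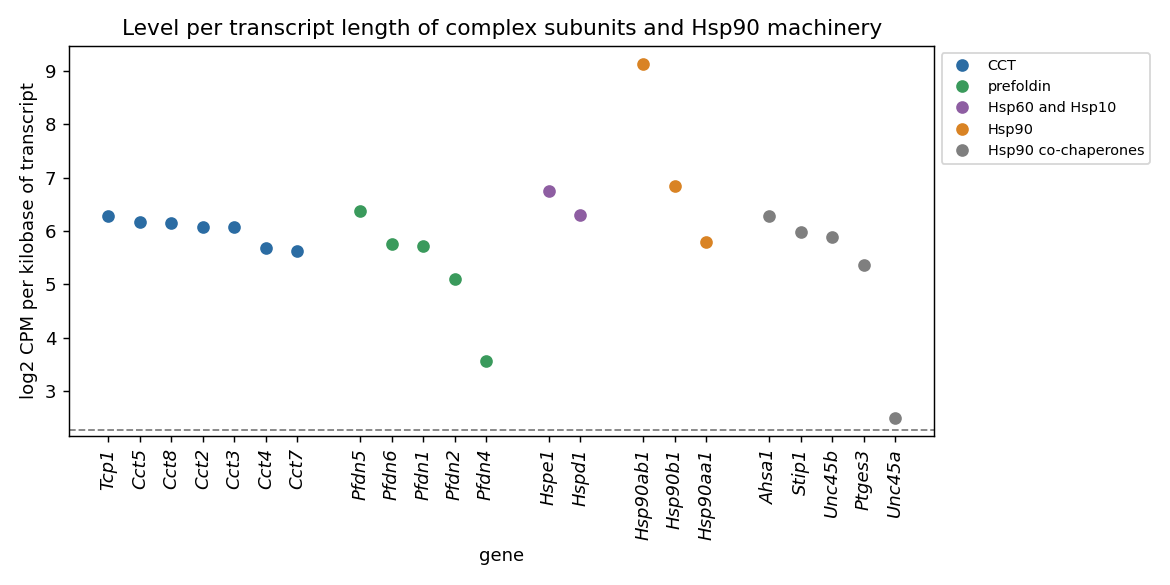
Level of each gene of CCT, prefoldin, Hsp60 and Hsp10, Hsp90 and the Hsp90 co-chaperones as log2 CPM per kilobase of transcript (vertical axis), with genes in falling order within each class. The dashed line is the all-gene median of 2.27. The 7 CCT genes span 0.65 and the 5 prefoldin genes 2.80, Pfdn4 being lowest.

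J-domain proteins form the largest class, with 38 listed genes. All 4 type A genes, which have the layout of bacterial DnaJ, exceeded the all-gene median per kilobase. Dnaja2 was highest at 6.21, followed by the mitochondrial member Dnaja3 (Tid1) at 5.07, Dnaja4 at 4.90 and Dnaja1 at 4.45. The order under Dnaja2 was the opposite as log2 CPM, at 6.95 for Dnaja1, 6.48 for Dnaja4 and 6.47 for Dnaja3, and per kilobase of coding sequence. The Dnaja1 transcript used here is 5622 bases long, of which 1194 are coding. Dnaja4 shares 52.2% of its words with other genes, nearly all of them in the overlapping gene Wdr61, and Dnaja1 31.2%.
Of the 10 type B genes 8 were above the all-gene median per kilobase. Dnajb5 was highest at 5.55, beside Dnajb6, the gene of a Z-disc protein mutated in a limb-girdle muscular dystrophy, at 5.47, and Dnajb4 and Dnajb2 were at 4.90 and 4.61. Those of the endoplasmic reticulum were Dnajb11 (ERdj3) at 4.60, Dnajb9 (ERdj4) at 3.95, Dnajb12 at 3.89 and Dnajb14 at 1.89. The Dnajb14 transcript used here is 9477 bases long, of which 1140 are coding. As log2 CPM Dnajb14 was at 5.14, near Dnajb9 at 5.25. Dnajb1, the main heat-inducible Hsp40, was at 2.57 per kilobase, so that Dnajb5 was 7.88-fold its level. Dnajb3, known from testis, was lowest at -0.08. Dnajb6 shares 45.3% of its words with other genes.
Of the 24 type C genes, which carry a J domain in otherwise unlike proteins, 18 were above the all-gene median per kilobase and 0 were in the upper 10% of listed genes by log2 CPM. The 10 highest by log2 CPM were led by Dnajc5 at 6.44, which encodes the vesicle protein CSPα, and Dnajc21, a factor of ribosome assembly, at 6.11. Next came Dnajc3 (p58IPK of the endoplasmic reticulum) at 6.05 log2 CPM, the splicing factor Dnajc8 at 6.02, the mitochondrial Dnajc11 at 5.79 and the Rab-like Dnajc27 at 5.50. The ribosome-bound Dnajc2 was at 5.45 log2 CPM, the disulfide reductase Dnajc10 at 5.44, the endosomal Dnajc13 at 5.36 and Dnajc19, of the mitochondrial import motor, at 5.26. Per kilobase the order changed, with Dnajc8 at 5.53 and Dnajc21 at 5.06 above Dnajc5 at 3.72. The 5 lowest were Dnajc12 at 3.82 log2 CPM, Dnajc17 at 2.82, the mitochondrial Dnajc15 at 2.36, Dnajc24, an enzyme cofactor in diphthamide synthesis, at 2.35 and Dnajc14 at 0.29. The other 9, among them Dnajc1 and Dnajc7, were between 4.11 and 5.19 log2 CPM.

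BAG proteins release nucleotide from Hsp70 and tie it to other pathways. Bag1, which links Hsp70 to the proteasome, was highest at 7.35 log2 CPM per kilobase, and Bag6, which guards tail-anchored membrane proteins, was at 5.57. Bag3, which joins Hspa8 and Hspb8 in the removal of damaged filamin at the Z-disc, was at 5.39. Stub1, the ubiquitin ligase of that complex, was at 4.53, so that Hspa8 and Hspb8 stood above both Bag3 and Stub1. Bag2, an inhibitor of Stub1, was at 3.89, Bag5 at 3.60 and Bag4 at 1.32. The 2 heat shock factors were among the lower genes, with Hsf2 at 2.84 and Hsf1, the main activator of inducible chaperone genes, at 0.52 log2 CPM per kilobase, or 1.60 log2 CPM.

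Reads from genes with close copies cannot be placed with certainty by transcript sequence, so the share of 31-base words that also occur in transcripts of other genes was measured in the GENCODE M21 transcripts. The median over the 89 genes was 2.56%, and 26 had none. It exceeded 50% for 9 genes, which were Hspa8, Hspa1l, Hspa1a, Hspa1b, Hsp90aa1, Hspe1, Hspb1, Hspd1 and Dnaja4. For Hspb1, 56.7% of the words occur in the pseudogene Hsp25-ps1, which is listed at -0.15 log2 CPM. Hspb6, Hspb8, Bag1 and Dnaja2, each the first or second of its class per kilobase, shared 0%.

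**Figure D4:**
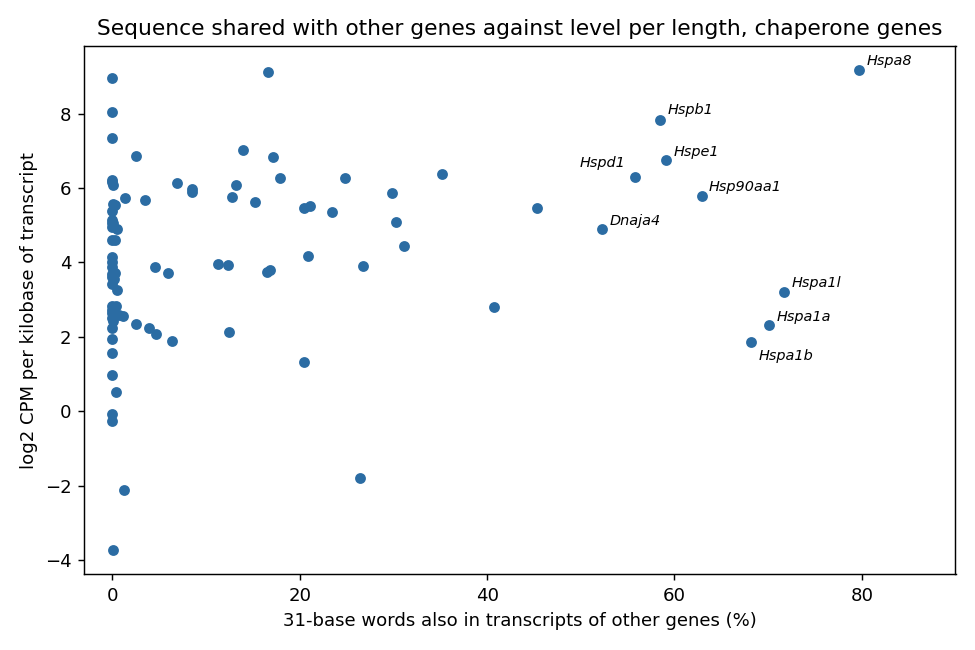
Percent of each gene's 31-base words that also occur in transcripts of other genes (horizontal axis) against its level as log2 CPM per kilobase (vertical axis), for the 89 genes. The 9 named points are over 50%, with Hspa8 farthest right at 79.7%.

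Other genes of the folding machinery, taken as a list of 41 outside the symbols above, were listed in 39 cases with a median of 3.84 log2 CPM per kilobase, and 36 were above the all-gene median. Hspa5 (BiP), the Hsp70 of the endoplasmic reticulum, was highest at 6.24, and Hspa8 stood 7.67-fold above it. Near it were the immunophilins Fkbp8 at 6.11 and Fkbp4 at 6.06, and Pdrg1, of a prefoldin-like complex, at 5.97. The mitochondrial Hsp90 gene Trap1 was at 5.59, St13 (Hip), which holds Hsp70 in its ADP state, at 5.28 and the mitochondrial protease Lonp1 at 5.07. The nucleotide exchange factors of Hspa9 were at 4.12 for Grpel1 and 2.30 for Grpel2. Cdc37, which brings kinases to Hsp90, was at 3.33, Fkbp5 at 2.70 and Hsf4, a heat shock factor, at 2.05. As log2 CPM Cdc37 was at 6.30, Fkbp5 at 4.65 and Hsf4 at 2.84, so the low value of Cdc37 depends on the length used. Per kilobase Sgtb was lowest at -0.71 and Hspbap1 was at -0.48.

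Among the 72 genes with a promoter entry, the 15 that hold GAANNTTC had a median of 6.75 log2 CPM, from 3.36 for Hspa1b to 9.40 for Hspb6, and the 57 without it a median of 5.36, from -2.40 to 8.34. The levels overlap between 3.36 and 8.34 log2 CPM. These values were not divided by length, and the same split was not made over all listed genes. The 15 are uneven by class, with 4 of 6 small heat shock protein genes but 1 of 18 type C J-domain genes. They are also not independent, since Hspd1 and Hspe1 share a stretch and the Hspa1a and Hspa1b windows are nearly the same. A link between the word and level was not tested. The 17 genes without an entry are in neither set. They ran from 1.60 log2 CPM for Hsf1 to 10.46 for Hsp90ab1, with Hspa8 at 10.44 and Hspa9 at 8.63. The 4 genes with the full element were at 7.58 for Hspd1, 7.02 for Dnajb6, 6.38 for Hspe1 and 3.50 for Hsph1. Both genes of the element shown first, Hspd1 and Hspe1, were thus among the more abundant, while Hsph1 was under the all-gene median of 4.03 log2 CPM. The median GC content of the windows was 62.0% for the members and 60.7% for the listed genes.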

How the data were processed

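Bulk RNA sequencing of quadriceps from 6 mice was used, 3 of each genotype. Per the labels, libraries were made with poly(A) selection and an ERCC spike-in. Per the study's methods, paired-end reads were assigned with kallisto, CPM values were computed with edgeR by the authors, genes above 1 CPM in at least 3 samples were kept, and values were log transformed, TMM-normalized and fitted with limma by the authors. The deposited log2 values used here are the authors' mean log2 CPM of each gene. The other 5 columns hold the authors' own comparison of the genotypes (fold change, moderated statistic, p-value before and after adjustment, and log odds) and were not used. The planned comparison of genotypes with limma needed values per sample and was not made. The submitters' processing notes name GRCm39 and mm39. The kallisto version and transcript index are not given in the sources used here. Because kallisto shares reads among similar transcripts, levels of near-identical genes are uncertain.

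Of 14016 rows, 1 has no symbol and was left out. Lengths came from GENCODE M21 (GRCm38), taking for each gene the longest of its coding transcripts, or of all transcripts where none codes. Of the symbols 13458 matched directly and 490 through another RefSeq symbol, so that 99.5% had a length. The level per kilobase is the mean log2 CPM minus log2 of length in kilobases, which ignores the use of shorter transcripts. Coordinates and promoter sequences are those of GRCm38, while the deposited table holds no coordinates. Calculations were made in Python 3.11.15 with pandas 2.3.3 and numpy 2.4.6, and were tested on simulated data. The genes named are all listed members of classes with up to 10 listed genes and the 10 highest and 5 lowest of the larger class, with others from a list of pathway genes. The members and lists were chosen with earlier results of these data known. Alternatives were a protein-coding background, a minimum level, other lengths and a shorter promoter element.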

Additional observations from a re-analysis of the deposited data

How the results depend on the processing

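No paired analysis was possible because only a mean over samples was at hand, with no value for any single mouse. Another pseudocount, the comparison without a further filter, the replicate block and leaving out each mouse were not run on that account. The number of members above the all-gene median stayed within 1.5 times its value, for all members and for each of the 13 classes, with protein-coding genes alone as background, with levels per kilobase of transcript and with coding length in place of transcript length. With genes of a mean of at least 0 log2 CPM alone it also did so, except that 0 heat shock factors were above the median, against 1, because removing low genes raises the median past Hsf2. With coding length the range per kilobase was 0.62 for CCT, against 0.65, and 2.63 for prefoldin, against 2.80. With 2 units of the heat shock element in place of 3, 18 of the 72 promoters held it, against 4, beside 13.9% of the listed genes. Without values per mouse, a depth or a standard deviation, no error could be given for any level.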
